A study of Homo sapiens with 12 samples.

Results

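This section describes the microRNA (miRNA) response of MOLM-14 cells to a lentiviral short hairpin RNA (shRNA) directed at MUC1. The comparison set the 3 samples titled as MUC1-silenced MOLM-14 against the 3 titled as MOLM-14 control, which is 6 of the 12 samples of the series. It is described over the 49 miRNA probes of the panel that reached 30 counts in at least 3 of the 6 samples. The other 749 did not. MOLM-14 is an established human acute myeloid leukaemia line of monocytic type. The control cells carried a scrambled hairpin delivered by the same kind of vector, so both groups were transduced, and RNA was taken from successfully transduced cells. Total RNA was assayed on a NanoString panel, which counts barcoded probes bound to each miRNA without amplification. The sources used here do not give the hairpin's sequence or the time after transduction, and nothing says that the 3 samples of a group were separate cultures. The p-values therefore measure only a spread between samples. In the main fit that spread was estimated from all 12 samples of the series, 6 of them THP-1 samples. MUC1 itself is not measured by a miRNA panel, so the knockdown has no check in these values. Samples were grouped by their titles, with which the transduction label of each agrees. The source names of silenced replicates 1, 2 and 3 read MUC1, MUC2 and MUC3, while those of the controls all read CTL, so the source name of replicates 2 and 3 goes against their titles.

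A mature miRNA guides the silencing complex to messenger RNAs, mainly by pairing of its seed, bases 2 to 8 from the 5′ end, with sites in the target. miRNAs that share a seed form a family with overlapping targets, and many are transcribed together from a cluster in the genome. MUC1 is a transmembrane mucin whose cytoplasmic part signals in several cancers, acute myeloid leukaemia among them. In leukaemic cells the let-7 family is known as a brake on RAS, MYC and HMGA2, the miR-15/16 family on BCL2 and cyclins, and the miR-17-92 family as a promoter of proliferation. miR-150 and miR-181a are known from lymphoid development, and miR-223 and miR-155 from myeloid cells and inflammation.

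The mature sequences are shown because several of the miRNAs below share a seed, and members of 1 family moved unequally. Sequences are from RefSeq (GRCh38.p14), in which 47 of the 51 miRNA names on the 49 probes had an entry, and capitals mark the seed. The 6 let-7 miRNAs described share 1 seed and differ from let-7a-5p in 1 to 4 bases.
let-7a-5p: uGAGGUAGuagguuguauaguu
let-7b-5p: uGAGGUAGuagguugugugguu
let-7c-5p: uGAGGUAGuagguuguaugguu
let-7d-5p: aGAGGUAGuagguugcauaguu
let-7g-5p: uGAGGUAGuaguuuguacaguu
let-7i-5p: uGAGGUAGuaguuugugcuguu
The miR-15/16 family has another seed, common to all 3 members described.
miR-15a-5p: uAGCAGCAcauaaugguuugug
miR-15b-5p: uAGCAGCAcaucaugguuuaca
miR-16-5p: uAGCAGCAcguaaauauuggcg
The miR-17-92 family and its paralogs hold 2 seeds among the members described, that of miR-93-5p and miR-20a/b-5p and that of miR-363-3p, miR-92a-3p and miR-25-3p.
miR-93-5p: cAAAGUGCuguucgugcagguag
miR-20a-5p: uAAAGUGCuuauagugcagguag
miR-20b-5p: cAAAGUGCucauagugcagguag
miR-25-3p: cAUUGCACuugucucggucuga
miR-92a-3p: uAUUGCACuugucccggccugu
miR-363-3p: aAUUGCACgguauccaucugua
The next 4 passed the test below, and no other matched miRNA had their seeds.
miR-191-5p: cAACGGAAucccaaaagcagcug
miR-181a-5p: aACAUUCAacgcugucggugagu
miR-4443: uUGGAGGCguggguuuu
miR-21-5p: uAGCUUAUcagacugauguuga

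Several of these lie side by side in the genome. On chromosome 3 the plus strand holds miR-15b-5p (chr3:160404607-160404628) and, 125 bases on, 1 of the 2 copies of miR-16-5p (chr3:160404754-160404775). The other copy of miR-16-5p lies on the minus strand of chromosome 13 (chr13:50049027-50049048), 118 bases from miR-15a-5p. miR-25-3p (chr7:100093571-100093592) and miR-93-5p (chr7:100093815-100093837) lie 222 bases apart on the minus strand. let-7b-5p (chr22:46113691-46113712) lies 917 bases from a copy of let-7a-5p, and let-7d-5p (chr9:94178841-94178862) 2857 bases from another. A mature miRNA made from several copies gives 1 count, so the copies cannot be told apart here.

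The total count was 12630, 17281 and 11103 in silenced replicates 1, 2 and 3 and 12978, 16172 and 17527 in control replicates 1, 2 and 3. Most of the panel gave background counts: 683 of the 749 probes not described stayed below 30 counts in all 6 samples. The mean over 630 background probes (above 1 and below 30 counts in all 12 samples) was 10.6 to 13.0 counts in the silenced and 12.6 to 15.1 in the control libraries. A count under 30 may therefore be mostly background. The lowest deposited value was 1, and 15 probes sat at it in all 6 samples. let-7a-5p and miR-1246 were at 1 in some samples and far above 30 in others, so no fold is given for them. Control replicates 2 and 3 did not differ beyond sampling noise (a chi-square test across the whole panel gave p = 0.0521, at 1.08 per degree of freedom), and their mean stands for 1 control where a group mean is formed. The fit kept both as separate controls, so its p-values treat them as independent. Of the markers of myeloid cells, miR-223-3p was at 21 to 49 counts and miR-155-5p at 41 to 94 over the 6 samples, while miR-142-3p was at 16 to 23. The myeloid label thus rests here on low counts. The lists of erythroid (at most 20 counts), epithelial (24), endothelial (24), neural (17), muscle (24) and stromal (20) miRNAs had no member described. The liver marker miR-122-5p was at 1 in 5 samples and at 52 in silenced replicate 3.

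The deposited count is given per sample. The scaled count is that count after division by the library's relative effective size, which is its sum over the tested probes times its TMM factor, set against the mean of all libraries. The log2 fold change is the fitted difference, silenced minus control, with its standard error. A miRNA passed, and is said to have risen or fallen, when the adjusted p of edgeR's quasi-likelihood test (Benjamini-Hochberg over the 67 probes tested) was under 0.05.

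With MUC1 shRNA 4 of the 49 miRNAs rose (miR-150-5p, miR-4443, miR-181a-5p and miR-21-5p) and 7 fell (miR-191-5p, miR-93-5p, miR-15b-5p and the b, d, g and i members of let-7). The 11 are 22.4% of the 49 and 16.4% of the 67 probes tested, 5.97% of the 67 higher and 10.4% lower. The same 11 calls stand over both numbers, so the gap between 22.4% and 16.4% is not read as an enrichment. The 18 tested probes outside the 49 met the count filter only with the THP-1 samples included. None of the 18 passed, but they were chosen for low counts in MOLM-14, so this is not read as a contrast with the 49. Of the 67, 22 had an unadjusted p under 0.05. The median log2 fold change was -0.10 over the 49 and -0.03 over the 67, with 20 of the 49 above and 29 below 0. Since a probe could enter through 1 group only, 5 of the 49 had reached 30 counts in controls alone and 1 in silenced samples alone. Of these, miR-93-5p, let-7i-5p and miR-150-5p are among the 11. In bulk RNA, a lower level in every cell and fewer cells that hold a miRNA cannot be told apart.

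**Figure D1:**
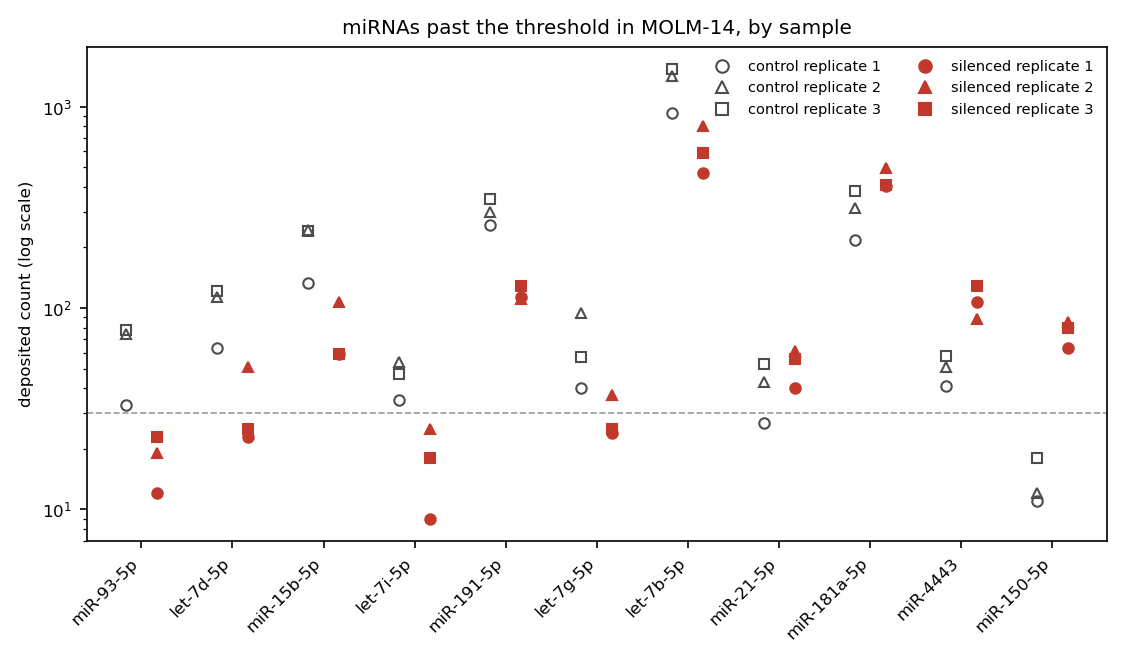
Deposited counts (log scale) of the 11 miRNAs that passed, for each control (open symbols) and silenced sample (filled symbols). The shape gives the replicate number and the dashed line marks 30 counts. Silenced counts of the 7 that fell all lie below the control counts, while those of miR-21-5p overlap the controls until library size is scaled.

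Among the rises, miR-150-5p, known in blood cells for holding down the transcription factor MYB, had counts of 63, 85 and 80 in silenced replicates 1, 2 and 3 and of 11, 12 and 18 in the controls. Every silenced sample lay above every control, and the control counts lay at the level of the background probes. The fitted log2 fold change was 2.74 ± 0.29 (edgeR adjusted p = 4.05e-07). Its size cannot be read as a fold, because a control count at background gives no level to divide by. Each silenced sample on its own against the controls gave 2.53, 2.62 and 3.01.

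miR-4443 had 107, 88 and 128 counts in the silenced samples and 41, 51 and 58 in the controls. The groups stood apart in deposited as well as in scaled counts, and silenced replicate 2 was the lowest of the silenced samples. It rose by 1.40 ± 0.28 on the log2 scale (edgeR adjusted p = 0.000568), with 0.80 from silenced replicate 2 alone against 1.43 and 1.82 from replicates 1 and 3.

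Counts of miR-181a-5p, which tunes signalling in developing lymphocytes, were 404, 494 and 407 with MUC1 shRNA and 217, 313 and 379 with the scrambled hairpin. Its mean count in the silenced group was the second highest of the 49, after that of let-7b-5p, and all 3 silenced samples lay above the highest control. The rise was 0.80 ± 0.16 (edgeR adjusted p = 0.000436), and the single silenced samples agreed closely at 0.76, 0.71 and 0.90. Its relatives on the panel, miR-181b/d-5p (14 to 28 counts) and miR-181c-5p (8 to 26 counts), stayed under 30 counts.

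miR-21-5p, a miRNA raised in many cancers, had 40, 61 and 56 counts in silenced and 27, 43 and 53 in control samples. The deposited counts overlapped, and only after scaling did the silenced samples all lie above the controls. Its rise of 0.64 ± 0.21 passed narrowly (edgeR adjusted p = 0.0339) and no longer did in the fit of the 6 MOLM-14 samples alone (0.65, adjusted p = 0.198). It also failed to pass without silenced replicate 3 (0.47) or without control replicate 1 (0.57), 2 (0.64) or 3 (0.70). With control replicates 2 and 3 averaged it did not pass either (0.66, edgeR adjusted p = 0.0734). miR-342-3p, with miR-150-5p and miR-181a-5p the third described member of a list of 5 lymphoid miRNAs, had 31, 38 and 42 against 20, 27 and 33 counts. It did not pass (0.75 ± 0.27, edgeR adjusted p = 0.054), although its scaled counts did not overlap. The other 2 lymphoid miRNAs, miR-28-5p and miR-148a-3p, reached at most 29 counts.

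Of the 7 falls 4 were in the let-7 family, that of let-7g-5p a narrow one. Over the 67 probes tested 10.4% fell and 5.97% rose, which are also the shares to set beside the family and list counts below. Of its 9 members on the panel 6 are described, of which 4 fell, none rose and 2 did not pass. The median log2 fold change of the 6 was -1.01, against -0.03 over all probes tested. That median includes the fitted value of let-7a-5p, which rests on a count at the lowest deposited value and is not a fold. The other members described ran from -1.34 (let-7d-5p) to -0.14 (let-7c-5p). let-7e-5p, let-7f-5p and miR-98-5p, of the same family, were at 11 to 35 counts in all 6 samples.

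let-7b-5p, whose mean count was the highest of the 49 in both groups, had 467, 802 and 586 counts in silenced and 929, 1426 and 1529 in control samples. The highest silenced count was below the lowest control count. It fell by 0.81 ± 0.14 on the log2 scale (edgeR adjusted p = 0.000204).

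For let-7d-5p the counts were 23, 51 and 25 with MUC1 shRNA and 63, 114 and 121 with the scrambled hairpin. Silenced replicate 2 came nearest to the controls without reaching them. The log2 fold change was -1.34 ± 0.25 (edgeR adjusted p = 0.000245), and the single silenced samples gave -1.75, -0.95 and -1.50.

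let-7i-5p had 9, 25 and 18 counts in silenced and 35, 54 and 47 in control samples. No silenced sample reached 30 counts, and replicate 1 lay under its background mean of 13.0, so the size of its log2 fold change of -1.14 ± 0.27 (edgeR adjusted p = 0.00265) is uncertain. After subtraction of 10 counts from every value it no longer passed (-1.85, adjusted p = 0.0658).

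let-7g-5p, at 24, 37 and 25 against 40, 94 and 57 counts, passed narrowly (-0.89 ± 0.29, edgeR adjusted p = 0.0339). The groups did not overlap, although the controls themselves ranged from 40 to 94. With only the 6 MOLM-14 samples in the fit it did not pass (-0.88, adjusted p = 0.0683), nor without control replicate 2, its highest control (-0.56, adjusted p = 0.276), nor without silenced replicate 3 (-0.90, adjusted p = 0.0843). With control replicates 2 and 3 averaged it did not pass either (-0.84, edgeR adjusted p = 0.0894).

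let-7c-5p, which differs from let-7a-5p by 1 base, did not pass. Its counts were 55, 117 and 52 in silenced and 68, 101 and 120 in control samples. Silenced replicates 1 and 3 lay below all controls and replicate 2 among them. The log2 fold change was -0.14 ± 0.21 (edgeR adjusted p = 0.771) with all samples and -0.44 (adjusted p = 0.135) without silenced replicate 2.

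let-7a-5p, at 1, 395 and 78 counts against 228, 611 and 590, had the widest spread of the family. Silenced replicate 1 was at the lowest value the table holds, replicate 3 below all controls and replicate 2 above control replicate 1. It did not pass (edgeR adjusted p = 0.446), nor without silenced replicate 2 (adjusted p = 0.0569), though it passed, lower, from silenced replicate 1 or 3 alone and with sample weights (adjusted p = 0.0328).

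**Figure D2:**
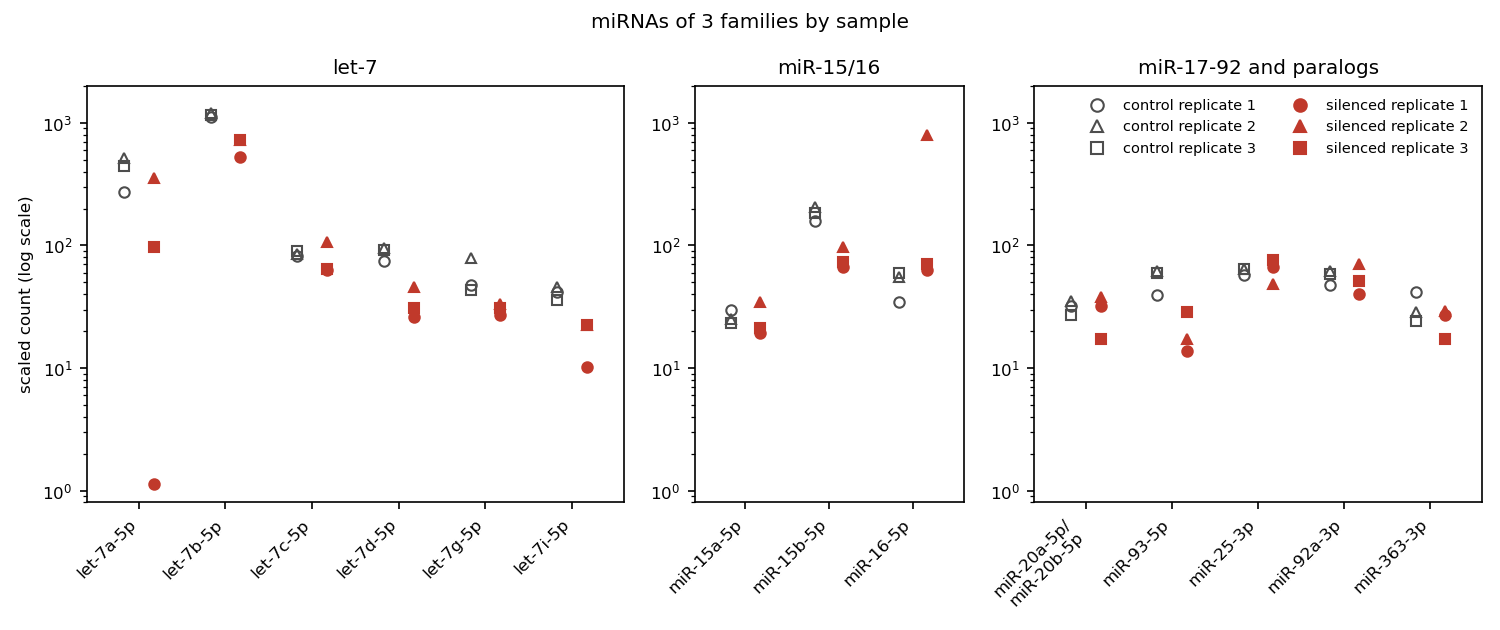
Scaled counts (log scale) of the members described of the let-7, miR-15/16 and miR-17-92 families, for each control (open symbols) and silenced sample (filled symbols), with the replicate number as the shape. Silenced replicate 2 (filled triangle) lies far above both other silenced samples for miR-16-5p and let-7a-5p, and the silenced samples lie below the controls for the b, d, g and i members of let-7, where points of replicates 2 and 3 of let-7i-5p coincide.

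In the miR-15/16 family, 3 of 7 members are described, of which 1 fell and 2 did not pass. miR-15b-5p had 59, 107 and 59 counts in silenced and 133, 244 and 241 in control samples. All silenced counts lay below all controls. It fell by 1.20 ± 0.21 on the log2 scale (edgeR adjusted p = 0.000204), and each silenced sample alone lay lower than the controls (-1.45, -0.94 and -1.32).

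miR-16-5p, which lies beside miR-15b-5p on chromosome 3 and has the same seed, did not follow it. Its counts were 55, 888 and 57 in the silenced samples and 29, 65 and 78 in the controls. Silenced replicate 2 stood far above every other sample, and deposited counts of the other silenced samples lay among the controls. The log2 fold change of 2.65 ± 0.93 did not pass (edgeR adjusted p = 0.0995).

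miR-15a-5p, beside the other copy of miR-16-5p, was at 17, 38 and 17 against 25, 30 and 31 counts (-0.04 ± 0.30, edgeR adjusted p = 0.961). Silenced replicate 2 was the highest of the 6 and replicates 1 and 3 were the lowest. The 4 members of the family not described (miR-195-5p, miR-497-5p, miR-424-5p and miR-503-5p) reached at most 30 counts.

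Of the miR-17-92 family and its paralogs 5 of 11 probes are described, of which 1 fell and 4 did not pass. miR-93-5p, of the cluster within the replication gene MCM7, had 12, 19 and 23 counts with MUC1 shRNA and 33, 74 and 78 with the scrambled hairpin. Every silenced count was below 30 and below every control. Its log2 fold change was -1.45 ± 0.25 (edgeR adjusted p = 0.000204), and silenced counts near background make that size uncertain.

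miR-25-3p, 222 bases from miR-93-5p in that cluster, did not pass. It had 59, 54 and 61 counts in silenced and 48, 76 and 85 in control samples, and its fitted change was 0.04 ± 0.23 on the log2 scale (edgeR adjusted p = 0.955). The probe shared by miR-20a-5p and miR-20b-5p, which have the seed of miR-93-5p, gave 28, 42 and 14 against 27, 42 and 36 counts (-0.10 ± 0.25). miR-92a-3p, at 35, 78 and 41 against 40, 73 and 77 counts (-0.05 ± 0.23), and miR-363-3p, at 24, 32 and 14 against 35, 34 and 32 (-0.33 ± 0.27), had overlapping groups too. The remaining 6 probes of the family, miR-17-5p with miR-106a-5p among them, reached at most 40 counts.

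miR-191-5p, often steady enough between samples to serve as a reference in miRNA assays, fell here. It had 114, 111 and 129 counts in silenced and 257, 300 and 347 in control samples. The 3 silenced counts lay close together and far below the controls. The log2 fold change was -1.08 ± 0.19 (edgeR adjusted p = 0.000228). miR-425-5p, made from the same transcript, was at 5 to 13 counts in all 6 samples.

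The remaining lists held few described members. Of 8 myeloid and inflammatory miRNAs 3 are described, of which miR-21-5p rose. miR-155-5p, at 52, 59 and 41 against 60, 90 and 94 counts, had silenced values below all controls and did not pass (-0.42 ± 0.20, edgeR adjusted p = 0.143). miR-223-3p, known from granulocyte maturation, was at 35, 22 and 24 against 21, 49 and 43 counts with overlapping groups (-0.17 ± 0.27).

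Of 21 miRNAs listed as targeting the immune checkpoint ligand PD-L1, 6 are described, and 2 of these, miR-15b-5p and miR-93-5p, fell. Over the 67 probes tested 10.4% fell, and so small a count is not read as a result about the list. The other 4 did not pass (miR-16-5p, miR-15a-5p, miR-155-5p and the probe of miR-20a/b-5p), and the 15 not described, miR-34a-5p and the miR-200 family among them, reached at most 29 counts. miR-23a-3p, alone of its list of 5, was described and had 89, 79 and 100 against 83, 103 and 105 counts (0.16 ± 0.22). miR-125a-5p (-0.36 ± 0.27) and miR-125b-5p (-0.35 ± 0.23), 2 of 5 in their list, did not pass either. No member of the HOX cluster (at most 39 counts), miR-29 (21), miR-30 (53) or miR-26 (64) lists was described.

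Some miRNAs that did not pass still had groups that stood apart. In scaled counts silenced and control samples did not overlap for 21 of the 49, with silenced higher for 9 and lower for 12. These are also the only such probes among the 67 tested, 13.4% and 17.9% of them. They comprise the 11 that passed and 10 that did not: miR-16-5p, miR-342-3p, miR-188-5p, miR-598-3p and miR-149-5p on the higher side and miR-629-5p, miR-423-5p, miR-1180-3p, miR-155-5p and miR-125b-5p on the lower side. The log2 fold changes of these 10, miR-16-5p aside, ran from -0.64 ± 0.29 (miR-629-5p) to 0.75 ± 0.27 (miR-342-3p). In deposited counts, before scaling, the groups stood apart for 14 of the 49, silenced higher for 3 and lower for 11. These counts carry the library sizes, which differed between samples, and the share over the 67 was not counted. The split of 3 and 11 is therefore not read as a direction of the miRNAs.

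Silenced replicate 2, the sample whose source name reads MUC2, stood apart from the other silenced samples. Across the 49 miRNAs the log2 scaled counts of silenced replicates 1 and 3 had a Pearson correlation of 0.761, while those of replicate 2 correlated at 0.272 with replicate 1 and 0.560 with replicate 3. Its correlation with control replicates 1, 2 and 3 was 0.571, 0.692 and 0.729, higher than with its own group. That order rested on the 2 miRNAs at the lowest value in some samples. Without let-7a-5p and miR-1246 replicate 2 correlated at 0.733 and 0.785 with its group, against 0.902 between replicates 1 and 3, and at 0.587 to 0.678 with the controls. These are correlations across miRNAs, which are not independent replicates and share library size and background. In a chi-square test of the 67 tested probes, the statistic per degree of freedom for replicate 2 was 19.2 against replicate 1. It was 15.9 against replicate 3, while replicates 1 and 3 gave 2.84. Against control replicates 1, 2 and 3 replicate 2 gave 20.9, 25.8 and 26.0. The 67 include miR-16-5p, let-7a-5p and miR-1246.

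Silenced replicate 2 also reached 30 counts on more probes. It had 88 such probes, against 33 and 28 in silenced replicates 1 and 3 and 31, 55 and 67 in the controls. Among the 749 probes not described, 47 reached 30 counts in silenced replicate 2, against 2 and 1 in the other silenced samples and 0, 10 and 19 in the controls. For 38 of the 47 no other MOLM-14 sample did. Of these 38, 6 carry the name miR-548, a large primate-specific family, which is 15.8% of the 38, and such probes are 3.76% of the panel. The highest of the 47 were miR-877-5p at 350 counts and miR-1290 at 303. The mean of the background probes in this library was 12.7 counts, within the range of the others. By definition that set leaves out every probe that reached 30 counts in any sample, so its mean does not bear on the 47.

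**Figure D3:**
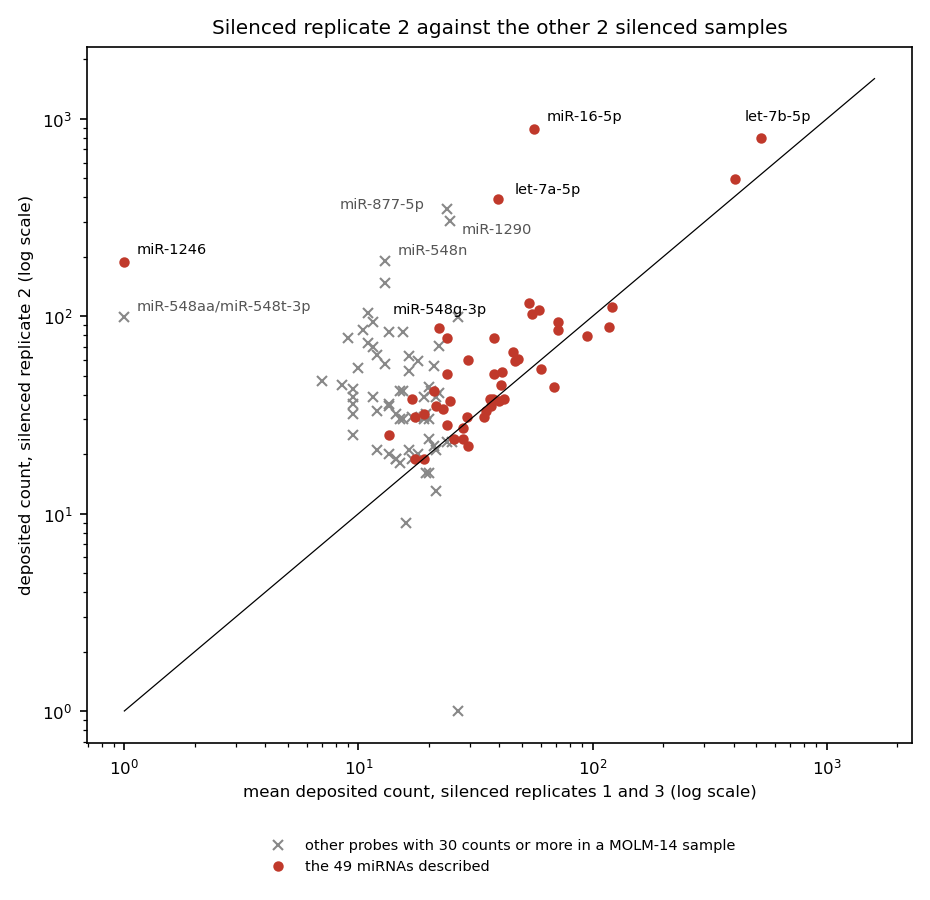
Deposited count in silenced replicate 2 against the mean of silenced replicates 1 and 3, both on log scales, for the 49 miRNAs described (filled circles) and the 66 other probes with 30 counts or more in at least 1 MOLM-14 sample (crosses). The line marks equal counts. miR-16-5p (888 counts), let-7a-5p (395), miR-1246 (188) and miR-877-5p (350) lie far above it.

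The 11 calls were also made without this sample. Without silenced replicate 2 each passed again in the same direction, and 4 more did, which made 15, 5 higher (7.46% of the 67) and 10 lower (14.9%). On the higher side the log2 fold change of miR-150-5p went from 2.74 to 2.79, miR-4443 from 1.40 to 1.63, miR-181a-5p from 0.80 to 0.84 and miR-21-5p from 0.64 to 0.65. On the lower side let-7d-5p went from -1.34 to -1.62, miR-15b-5p from -1.20 to -1.38, let-7i-5p from -1.14 to -1.34, let-7g-5p from -0.89 to -0.96 and let-7b-5p from -0.81 to -0.88. miR-93-5p (-1.37) and miR-191-5p (-0.92) came out smaller without it. In scaled counts 29 of the 49 then stood apart, 11 higher and 18 lower, in a comparison of 2 silenced samples with 3 controls. With fewer samples groups stand apart more easily, and the share over the 67 was not counted. This count is therefore not comparable with that over all 3 silenced samples.

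The 4 that joined were miR-342-3p (0.86, edgeR adjusted p = 0.00937), miR-423-5p (-0.70, adjusted p = 0.00807), miR-6724-5p (-0.78, adjusted p = 0.0147) and miR-1246 (adjusted p = 0.0103). miR-423-5p had 50, 103 and 60 counts in silenced and 86, 139 and 131 in control samples, so in deposited counts replicate 2 alone lay among the controls. miR-6724-5p, at 27, 78 and 21 against 42, 69 and 51 counts, had its highest value in silenced replicate 2 and its lowest in the other silenced samples. miR-1246, at 1, 188 and 1 against 14, 172 and 224 counts, was near the top of the 6 in replicate 2 and at the lowest value of the table in replicates 1 and 3. Control replicate 1 was at background level, so its call compares values at or near the floor with 2 high control counts.

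Apart from let-7a-5p and miR-1246, which have values at the floor, the size of the effect changed most for miR-16-5p, whose log2 fold change went from 2.65 ± 0.93 to 0.40 ± 0.23 (edgeR adjusted p = 0.25) without silenced replicate 2. miR-548g-3p, at 18, 87 and 26 against 15, 33 and 36 counts, went from 0.85 ± 0.38 to 0.08 ± 0.30. For both, the larger value came from 1 sample. For miR-6724-5p the value went the other way, from -0.18 ± 0.32 to -0.78 ± 0.25. The deviation of replicate 2 from the mean of replicates 1 and 3 on the log2 scale exceeded 1 for 6 of the 49, against 5 for replicate 1 and 3 for replicate 3 measured likewise. Its median absolute deviation over the 49 was 0.459, against 0.439 and 0.314. A large value in 1 sample also enters the deviations of the other 2. For miR-16-5p these were 3.57 for replicate 2, -1.92 for replicate 1 and -1.65 for replicate 3. The measure therefore cannot tell how much of the deviation of replicate 1 comes from replicate 2.

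**Figure D4:**
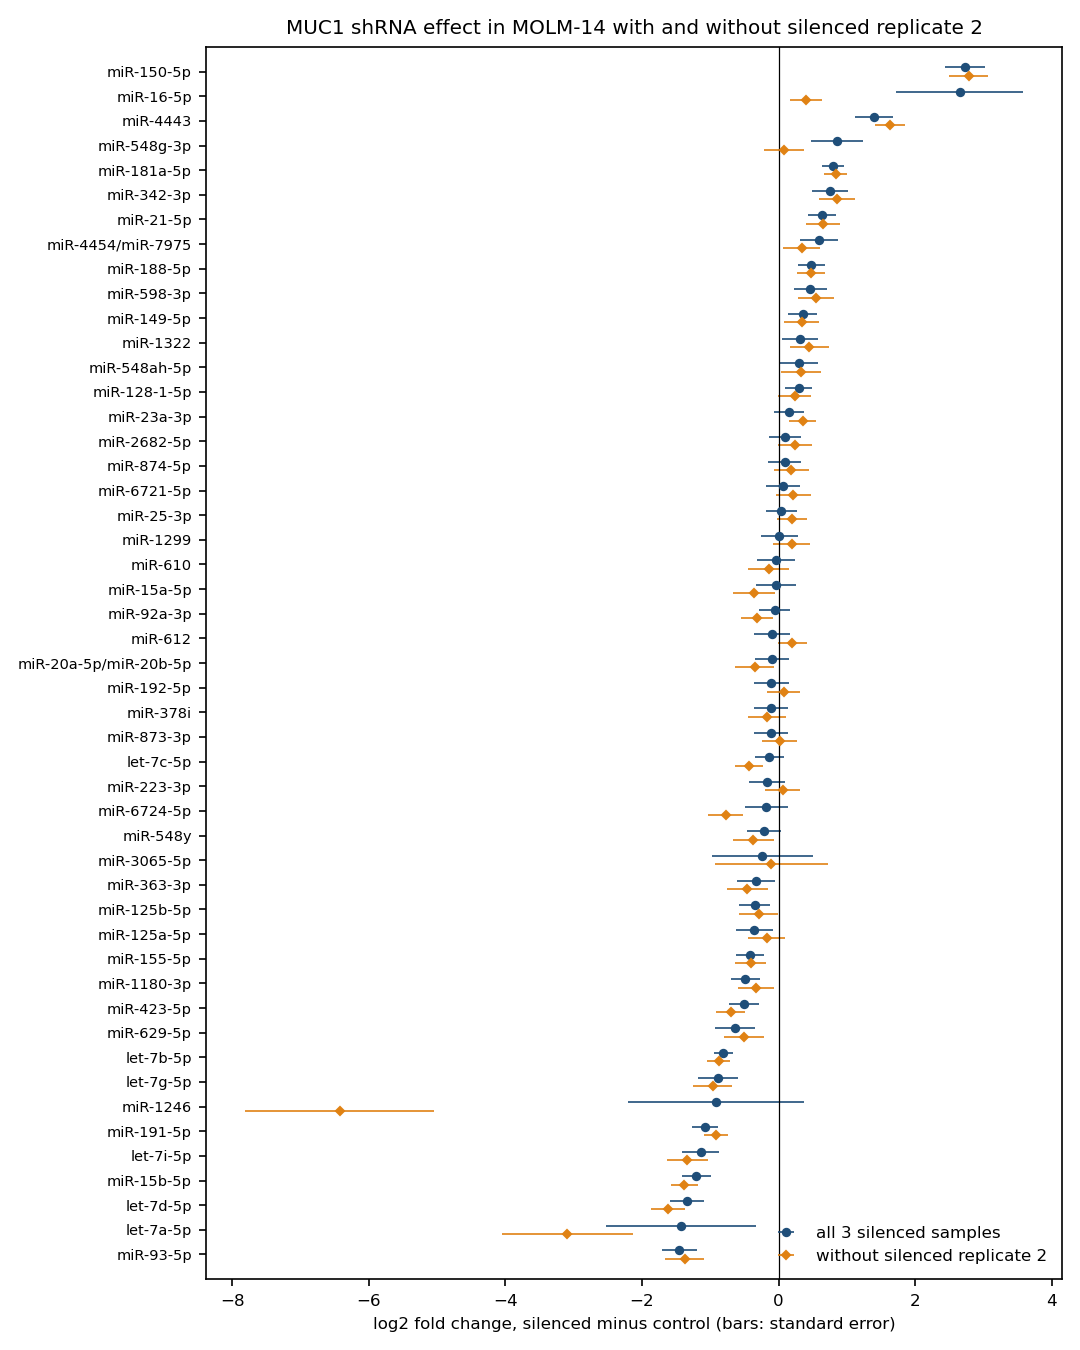
Fitted log2 fold change, silenced minus control, of the 49 miRNAs with all 3 silenced samples (circles) and without silenced replicate 2 (diamonds), with standard errors as bars. The pairs of points lie close together for the 11 that passed and far apart for miR-16-5p, let-7a-5p and miR-1246, and the values of the last 2 without replicate 2 rest on counts at the lowest value of the table and are not folds.

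Each silenced sample was also set alone against the 3 controls, with the spread taken from the other samples. Replicate 1 alone gave 11 calls among the 67 (16.4%), replicate 2 alone 16 (23.9%) and replicate 3 alone 11 (16.4%), of which 11, 13 and 11 were among the 49. Each of the 3 kept 9 of the 11 calls. miR-21-5p and let-7g-5p were lost from replicates 1 and 2, and let-7g-5p and let-7i-5p from replicate 3. With replicate 2 alone miR-16-5p (3.97), miR-548g-3p (1.64), miR-4454/miR-7975 (0.94) and miR-612 (-0.85) passed as well. With replicate 1 alone miR-423-5p (-0.90) and let-7a-5p (edgeR adjusted p = 1.45e-06) joined, and with replicate 3 alone miR-342-3p (1.12) and let-7a-5p (adjusted p = 0.000733). The 8 that passed from each silenced sample alone were miR-150-5p, miR-4443, miR-181a-5p, let-7b-5p, let-7d-5p, miR-15b-5p, miR-93-5p and miR-191-5p. The 3 fits share the same controls and spread, so they are not independent. What the differing source names of the silenced samples stand for was not tested.

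The number of calls changed more when silenced replicate 1 was left out. Without it 21 of the 67 probes passed (31.3%), 13 higher and 8 lower, and 16 of these were among the 49. All 11 stayed, and miR-16-5p (3.13), miR-548g-3p (1.19), miR-342-3p (0.84), miR-4454/miR-7975 (0.82) and miR-188-5p (0.56) joined them. Without silenced replicate 3 there were 10 calls. Another 5 that joined were outside the 49. miR-16-5p passed without replicate 1 or replicate 3, where its 888 counts in replicate 2 make up 1 of the 2 silenced values, and did not pass without replicate 2. miR-548g-3p and miR-4454/miR-7975 also had their highest silenced count in replicate 2 (87 and 60), and without it came to 0.08 and 0.34. miR-342-3p and miR-188-5p came to 0.86 and 0.48 without it. Which sample the added calls rest on was not tested.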

How the data were processed

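MicroRNA levels were measured in 6 MOLM-14 samples, and 6 THP-1 samples of the same table entered only the count filter, the background set, the scaling and the shared estimate of spread. The authors deposited whole-number probe counts for a panel of miRNA probes, read as counts from the values, which are whole and sum to 11103 to 17527 per MOLM-14 library. Per the labels' protocols RNA was isolated with a Qiagen kit and assayed as NanoString prescribes. The sources used here name no counting software and do not say whether background was subtracted or lanes were scaled, so the counts may not be raw. Each column was matched to a sample by its accession, and 0 columns were left unused.

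Probes with 30 counts or more in at least 3 of the 12 samples (67) were scaled with TMM factors and fitted in edgeR 4.0.16 (R 4.3.3) by quasi-likelihood with robust estimation of the spread, as 4 group means. Each adjusted p follows Benjamini-Hochberg over the 67, and the threshold was 0.05. The standard error was the size of the log2 fold change divided by the square root of F. Counting error is large under 30 counts, and intervals are not given because no share of counts is reported. Alternatives used DESeq2 1.42.0, limma 3.58.1 (pseudocounts of 1 and 10), other scalings, filters and sample sets, and each replicate left out.

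The miRNAs named are those that passed, the 10 largest rises and falls, the 5 of highest mean count, the 10 in which silenced replicate 2 lay farthest from its group, list members, and those whose call changes without it or with only the 6 samples. The 49 miRNAs and the lists were chosen with earlier results of these data known.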

Additional observations from a re-analysis of the deposited data

Results flagged for a closer look

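Among probes outside the 49, 12 had a count of at least 30 in a silenced sample that was also at least 5 times the highest control count. In 11 of the 12 that sample was silenced replicate 2. They were miR-877-5p (350 counts), miR-1290 (303), miR-548n (190), miR-219a-2-3p (147), miR-483-3p (104), miR-548aa/miR-548t-3p (99), miR-549a (94), miR-944 (85), miR-548j-3p (78), miR-520d-3p (70) and miR-125a-3p (63). The probe of miR-548aa/miR-548t-3p was at 1, the lowest deposited value, in the other 5 samples. The twelfth was miR-122-5p, at 52 counts in silenced replicate 3 and at 1 in the other 5 samples. Each of these highest counts is that of 1 sample. For miR-125a-3p the other silenced samples, at 17 and 16 counts, also lay above the controls, at 7, 9 and 10, and it passed when all probes were tested (2.03 ± 0.44, edgeR adjusted p = 0.0176).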

How the results depend on the processing

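Over 29 alternatives, 26 of them listed at the outset and 3 chosen after seeing the data (no robust estimation, and background scaling or averaged controls together with leaving out silenced replicate 2), 8 of the 11 calls passed in every one: let-7b-5p, let-7d-5p, miR-150-5p, miR-15b-5p, miR-181a-5p, miR-191-5p, miR-4443 and miR-93-5p. The other 3 were lost in 17 (miR-21-5p), 16 (let-7g-5p) and 2 (let-7i-5p) of them, and all 11 kept their direction wherever they were tested, which was in all 29 except for let-7i-5p (28, since a minimum of 50 counts left it out). The number of calls ranged from 9 to 21 when each replicate was left out, with the 21 coming without silenced replicate 1, and the cause was not tested. It was 9 with DESeq2, under background scaling, with control replicates 2 and 3 averaged and with only the 6 MOLM-14 samples, 11 with no count filter (9 of the 11 and, from outside the 49, miR-125a-3p and miR-4488, with miR-21-5p and let-7g-5p lost) and 14 with a minimum of 50 counts. Deviations of same-numbered samples from their group means correlated at 0.44, 0.51 and -0.26. These values cannot decide whether replicate numbers pair the samples. Deviations within a group cancel out, and control replicates 2 and 3 were near alike (r = 0.971 on the log2 scale). With the replicate block the count was 11, the same 11 miRNAs. Of the 38 miRNAs that did not pass, 12 passed under some alternative. Of the 38, 25 had the opposite sign under some alternative, and none passed with a sign opposite to its value over all samples. Most of the panel lay at background counts, and the limit of 30 counts is a chosen filter: without it miR-4488 passed at 6, 6 and 8 against 27, 29 and 18 counts (-1.69, edgeR adjusted p = 0.00143).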
